A study of Arabidopsis thaliana with 3 samples.

Results

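ATHILA elements are long terminal repeat retrotransposons of the Gypsy superfamily that fill much of the heterochromatin around the centromeres of Arabidopsis thaliana. The regions described here are stretches of differential DNA methylation in which every listed repeat was an ATHILA element other than ATHILA2 or the ATHILA6 subfamilies. The rule used that repeat annotation alone and no measured small RNA value, though it was set with earlier results of these data known. The regions numbered 326 of the 4481 distinct regions in the deposited tables. They lay in 243 annotated elements. The families with at least 10 regions were ATHILA3 (73 regions), ATHILA4 (51), ATHILA0_I (49), ATHILA (46), ATHILA4A (27), ATHILA4C (26), ATHILA5 (22) and ATHILA7 (10), and 10 further regions listed more than 1 family. The remaining regions belonged to ATHILA4B_LTR (4), ATHILA8B (4), ATHILA4D_LTR (2) and ATHILA8A (2).

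Small RNAs were sequenced from total RNA of whole 10-day-old seedlings grown in vitro, with 1 library for each of 3 genotypes. The ddb2-3 library came from plants labelled with the insertion DsLoxHs195_05H in DDB2, which encodes a protein that recognises damaged DNA in global genome repair. The nrpd1a library came from plants labelled with the insertion Salk_583051 in NRPD1, the gene for the catalytic subunit of the plant RNA polymerase IV (Pol IV). The wild type (WT) library came from Col. Each mutant was represented by a single insertion line, the labels name no treatment, and no genotype had a replicate. Every interval below therefore covers the counting error of these libraries and says nothing of the spread between plants of a genotype. In whole seedlings, a difference in the share of a cell type and a difference in small RNA per cell cannot be told apart.

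Pol IV transcribes heterochromatic repeats, and its transcripts are copied into double strands by RDR2 and cut by DCL3 into 24-nt small interfering RNAs (siRNAs). These siRNAs guide the methylation of the matching DNA, in plants at cytosines followed by G (CG), by another base and G (CHG) or by neither (CHH). Gypsy elements of the pericentromeric heterochromatin are also kept methylated by pathways that need no siRNA, namely CMT2 and CMT3 with the histone H3 lysine 9 methyltransferases and MET1 at CG sites. The level of 24-nt siRNAs was given for each region as RPM, reads scaled to the size of the library. The deposited values were whole multiples of what 1 read was worth, 0.120 RPM in ddb2-3, 0.727 RPM in nrpd1a and 0.169 RPM in WT, so that 1 read weighed most in the shallow nrpd1a library. The corresponding totals were 8345931, 1376238 and 5913669 reads for ddb2-3, nrpd1a and WT.

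ATHILA copies share long stretches of sequence, and a 24-nt read may match many of them. A pair of regions with nearly the same sequence shows the counts that such copies had. The ATHILA0_I region chr3:15253601-15253700 and an ATHILA2 region on another chromosome, chr1:15831501-15831600, shared a run of 99 of their 100 bases (capitals), the second being on the opposite strand. Sequences here were read from the RefSeq copy of the genome (TAIR10.1) at the coordinates of the deposited tables (TAIR10), and are written 5′ to 3′.

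ATHILA0_I chr3:15253601-15253700, plus strand: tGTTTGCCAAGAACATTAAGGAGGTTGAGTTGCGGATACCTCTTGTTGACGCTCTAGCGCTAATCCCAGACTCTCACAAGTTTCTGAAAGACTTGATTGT

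ATHILA2 chr1:15831501-15831600, minus strand: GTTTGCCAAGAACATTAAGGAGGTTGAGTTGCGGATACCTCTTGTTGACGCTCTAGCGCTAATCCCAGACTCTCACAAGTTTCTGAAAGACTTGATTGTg

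Both regions were listed with 135 reads in ddb2-3, 0 reads in nrpd1a and 82 reads in WT. The read counts were thus equal in every library at places on different chromosomes. In the whole series 5 pairs of equally wide regions shared at least 90% of their 24-base words, and the larger count of a pair was at most 1.11 times the smaller in ddb2-3 and WT. In nrpd1a 4 of the pairs had no read, and the other had 2 reads and 1 read. How reads that match several places were counted is not given in the sources used here. If such a read was counted at each place, sums over regions hold it more than once and their intervals are too narrow. Over the 326 regions a median of 44.2% of the 24-base words of a region occurred at 1 place only in the nuclear genome, and 38 regions had no such word.

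The single region with the most siRNAs shows how repeated and unique sequence alternate within 100 bases. It lay in an ATHILA3 element on chromosome 5, inside the pseudogene AT5G34842, and belonged to the CHG-hypo class. Capitals mark bases that lie in a 24-base word found at 1 place in the nuclear genome.

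ATHILA3 chr5:13025901-13026000, plus strand: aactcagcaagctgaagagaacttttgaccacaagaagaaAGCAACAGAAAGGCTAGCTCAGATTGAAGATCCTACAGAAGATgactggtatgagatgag

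The 2 regions with the highest ddb2-3 to WT ratio among those of at least 10 RPM in some library follow, with the same use of capitals. They were an ATHILA region of the CHG-hypo class in the pseudogene AT2G10240 and an ATHILA3 region of the CHG-hyper class close to the approximate centromere of chromosome 2.

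ATHILA chr2:3919501-3919600, plus strand: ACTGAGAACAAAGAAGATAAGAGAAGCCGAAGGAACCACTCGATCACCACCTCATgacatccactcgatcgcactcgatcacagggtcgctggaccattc

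ATHILA3 chr2:3601601-3601700, plus strand: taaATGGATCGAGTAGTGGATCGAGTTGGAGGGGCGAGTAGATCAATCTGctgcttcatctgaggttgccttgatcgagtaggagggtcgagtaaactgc

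Both carried 3 copies of the 8-base word GATCGAGT, counted on both strands with its reverse complement ACTCGATC. The word was picked after these sequences had been read. It occurred in 16 of the 326 regions (4.91%) and in 50 of all 4481 distinct regions (1.12%). ATHILA2 and ATHILA6 held it too, in 12 of 313 and 12 of 209 regions, which leaves 10 regions outside these ATHILA sets. The 14 other ATHILA regions with the word had a median log2 difference of 0.59 between ddb2-3 and WT, ranging from -0.46 to 1.29, and the 310 regions without it had a median of 0.46, ranging from -0.92 to 1.55. The ranges overlapped.

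For contrast, the 2 lowest ratios of regions with at least 10 RPM, leaving out a region with a tRNA gene that is described further on, belonged to an ATHILA region of the CHG-hypo class inside the protein-coding gene AT5G25754 and to an ATHILA3 region of the CHG-hyper class in the pseudogene AT2G06967. Capitals have the same meaning.

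ATHILA chr5:8956401-8956500, plus strand: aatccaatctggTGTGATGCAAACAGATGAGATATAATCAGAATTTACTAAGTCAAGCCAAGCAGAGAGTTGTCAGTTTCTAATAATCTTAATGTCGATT

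ATHILA3 chr2:2879601-2879800, plus strand: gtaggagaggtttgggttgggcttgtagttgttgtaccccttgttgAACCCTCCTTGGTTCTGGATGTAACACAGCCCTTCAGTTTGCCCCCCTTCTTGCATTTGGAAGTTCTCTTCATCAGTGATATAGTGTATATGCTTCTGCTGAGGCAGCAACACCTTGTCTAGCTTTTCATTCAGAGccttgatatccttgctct

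Setting ddb2-3 against WT addresses whether loss of DDB2 goes with another siRNA level over ATHILA sequence. Summed over the 326 regions the level was 3406 RPM in ddb2-3 (28429 reads) and 2328 RPM in WT (13768 reads), a ratio of 1.46 (95% interval 1.43 to 1.49), or 0.55 on the log2 scale (0.52 to 0.58). The median region had 5.75 RPM in ddb2-3 and 4.31 RPM in WT. The level in ddb2-3 was above WT in 279 of the 326 regions and below it in 47, whereas 63.4% of all distinct regions were above WT. The difference was thus broad and modest, with few regions that moved far.

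Single regions were compared by log2(RPM + 1), ddb2-3 minus WT, a scale that shrinks the differences of regions with few reads. All 326 regions reached 1 RPM in some library and so passed the filter, of which 29 passed through ddb2-3 alone and so had to be higher there. The median log2 difference was 0.47 with quartiles of 0.21 and 0.73, beside a median of 0.17 over all distinct regions. By a rule of size alone, 32 regions were at least 2-fold higher in ddb2-3 and 0 were at least 2-fold lower. The same rule held for 5.22% of all distinct regions in the upward and for 1.67% in the downward direction. When ddb2-3 was scaled so that the median of all regions equalled WT, a shift of 0.20 on the log2 scale, 15 ATHILA regions lay 2-fold or more above WT and 0 below, against 2.99% and 2.03% of all regions. The log2 ratio of the summed levels was then 0.35.

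The 95% interval of a region's own ratio lay above 1 in 133 regions and below 1 in 4, and for all distinct regions these shares were 25.8% and 9.89%. The intervals of 273 of the 326 regions covered the ratio of the summed levels, those of 24 lay above it and those of 29 below it. For most regions the counts therefore could not tell the region's ratio from that of the sum at this depth. An exact binomial test of the read counts at an adjusted p of 0.05 (Benjamini-Hochberg, over all distinct regions), which compares the libraries and not the genotypes, called 100 of the regions higher in ddb2-3 and 0 lower, against 19.3% and 7.03% of all regions. Across the regions the level in ddb2-3 followed that in WT with a Spearman correlation of 0.93 (n = 326 regions of the same libraries, with sequence in common between copies).

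**Figure D1:**
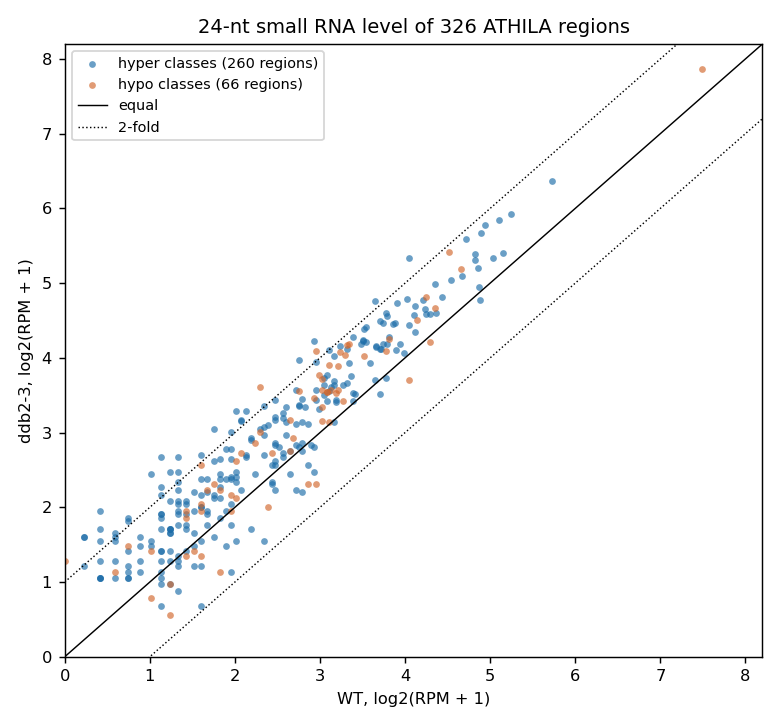
Level of 24-nt siRNAs in ddb2-3 (y axis) against WT (x axis), both as log2(RPM + 1), for the 326 ATHILA regions. Each point is 1 region, coloured by whether it came from hyper (260) or hypo (66) methylation classes, the solid line marks equal levels and the dotted lines mark a 2-fold difference. Most points lie between the line of equality and the upper dotted line, 32 lie on or above the upper one and 0 below the lower one.

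The region with the highest level, the ATHILA3 region of chromosome 5 printed above, had 233 RPM in ddb2-3, 0 RPM in nrpd1a and 178 RPM in WT. Its ratio of ddb2-3 to WT was 1.31 (1.21 to 1.41), below that of the sum. It alone held 6.85% of the summed level in ddb2-3 and 7.65% of that in WT. The next by WT level was the ATHILA3 region chr5:10744601-10744700 of the CHG-hyper class, with 81.6 RPM in ddb2-3, 0 RPM in nrpd1a and 52.1 RPM in WT. An ATHILA5 region in the pseudogene AT1G43745, chr1:16516201-16516300, had 59.8 RPM in ddb2-3 and 37.0 RPM in WT. The ATHILA4 region chr3:12323001-12323100 of the CHH-hyper class had 41.2 RPM in ddb2-3 and 34.5 RPM in WT, a ratio of 1.19 whose interval began just above 1. The ATHILA5 region chr5:11767801-11767900 in the pseudogene AT5G31927 had 56.7 RPM in ddb2-3 and 33.3 RPM in WT, a ratio of 1.70 (1.44 to 2.02). All 5 of these abundant regions were above WT in ddb2-3, and 0 of them had a read in nrpd1a.

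Among the regions of at least 10 RPM in some library (110 regions), the 5 with the highest ratios differed from WT by more than 2-fold. The ATHILA region in AT2G10240 had 11.3 RPM in ddb2-3 and 3.89 RPM in WT, a ratio of 2.90 (1.82 to 4.79). The ATHILA3 region next to the centromere of chromosome 2 had 17.7 RPM in ddb2-3 and 6.59 RPM in WT, a ratio of 2.69 (1.88 to 3.93). Also on chromosome 2, the ATHILA0_I region chr2:4210801-4210900 of the CHH-hyper class, had 39.5 RPM in ddb2-3 and 15.6 RPM in WT, a ratio of 2.54 (2.01 to 3.24), and also held the word GATCGAGT. The remaining regions were the ATHILA3 region chr3:12327501-12327600 with 14.7 RPM in ddb2-3 and 5.75 RPM in WT, and the ATHILA4 region chr4:3568701-3568800 in the pseudogene AT4G06581 with 16.1 RPM in ddb2-3 and 6.76 RPM in WT. For all 5 regions the interval of the ratio lay above 1, but they were picked for their ratio from 110 regions. All but the ATHILA0_I region reached 10 RPM in ddb2-3 only, so that the filter itself favoured a high ratio in them.

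Among the regions of at least 10 RPM in some library, and apart from the region with a tRNA gene, the lowest ratios lay close to 1. The lowest was that of the ATHILA region in AT5G25754, with 12.0 RPM in ddb2-3 and 15.6 RPM in WT, a ratio of 0.770 (0.574 to 1.03). The ATHILA3 region in AT2G06967 had 10.4 RPM in ddb2-3 and 12.0 RPM in WT. An ATHILA region in the pseudogene AT2G10670, chr2:4191001-4191100, had 26.4 RPM in ddb2-3 and 28.4 RPM in WT. The ATHILA4A region chr2:4849001-4849300 had 17.6 RPM in ddb2-3 and 18.6 RPM in WT. The intervals of these 4 ratios included 1, so that no lower level in ddb2-3 was detectable in them at this depth. Outside the rule for named regions and picked after their values were seen, the 4 regions with an interval wholly below 1 were the region with the tRNA gene, an ATHILA4C, an ATHILA and an ATHILA7 region. The last 3 had 1.92, 0.599 and 3.95 RPM in ddb2-3, against 4.06, 2.03 and 6.76 RPM in WT.

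Family by family, ddb2-3 was above WT in each family of at least 5 regions. ATHILA0_I, a name that stands for the internal part of the element between its terminal repeats, had the highest log2 ratio of summed levels, with 610 RPM in ddb2-3, 1.45 RPM in nrpd1a and 383 RPM in WT and a log2 ratio of 0.67 (0.60 to 0.74). It was followed by ATHILA7 with 64.9 RPM in ddb2-3, 0 RPM in nrpd1a and 41.1 RPM in WT and a log2 ratio of 0.66 (0.44 to 0.88). ATHILA5 had 265 RPM in ddb2-3, 46.5 RPM in nrpd1a and 173 RPM in WT, a log2 ratio of 0.61 (0.51 to 0.72) between ddb2-3 and WT. ATHILA3, the family with the most regions, had 1068 RPM in ddb2-3, 7.27 RPM in nrpd1a and 714 RPM in WT, a log2 ratio of 0.58 (0.53 to 0.63), which was 0.64 (0.58 to 0.70) without its most abundant region.

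The regions named ATHILA had 500 RPM in ddb2-3, 2.91 RPM in nrpd1a and 357 RPM in WT, a log2 ratio of 0.49 (0.41 to 0.56). ATHILA4 had 400 RPM in ddb2-3, 1.45 RPM in nrpd1a and 286 RPM in WT, a log2 ratio of 0.48 (0.40 to 0.57). Its relatives ATHILA4A and ATHILA4C had the lowest log2 ratios, 0.38 in both (0.25 to 0.52 and 0.21 to 0.54), from 155 and 104 RPM in ddb2-3, 0.727 RPM each in nrpd1a and 119 and 79.8 RPM in WT. The regions with several families had 121 RPM in ddb2-3, 0 RPM in nrpd1a and 85.6 RPM in WT, a log2 ratio of 0.50 (0.34 to 0.65). The intervals of ATHILA4A and ATHILA4C did not overlap that of ATHILA0_I and overlapped those of the families in between except ATHILA3, whose interval lay above that of ATHILA4A. The family order was not tested, since regions of 1 library are no replicates.

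In the fewest-region families the direction was the same, with 4 ATHILA4B_LTR, 4 ATHILA8B, 2 ATHILA4D_LTR and 2 ATHILA8A regions at log2 ratios of 0.55, 0.44, 0.78 and 0.18. The interval of the ATHILA8A value (-0.07 to 0.44) included 0. The 9 regions whose name contains LTR, the terminal repeat that carries the element's promoter, had a log2 ratio of 0.53 (0.35 to 0.73), close to that of the whole set. ATHILA4C had the smallest share of regions above WT, 18 of 26, and ATHILA3 the largest among the families of more than 10 regions, 67 of 73.

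**Figure D2:**
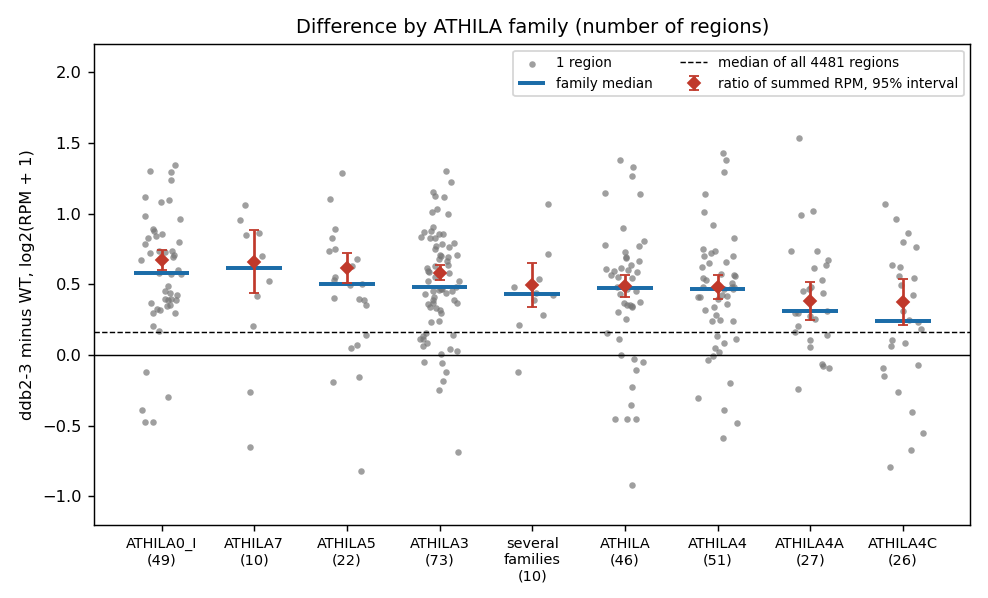
Difference between ddb2-3 and WT (y axis, log2 of RPM + 1 for points and medians) by ATHILA family (x axis, number of regions in parentheses), ordered by the ratio of summed levels. Grey points are regions, blue bars family medians, red diamonds the log2 ratio of summed RPM with its 95% interval, which covers counting error only, and the dashed line is the median of all 4481 regions (0.17). The diamonds run from 0.67 in ATHILA0_I to 0.38 in ATHILA4C, against 0.13 for the summed levels of all 4481 regions. The dashed line is on the scale of the points and medians. Single regions of a family scatter on both sides of 0.

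The most abundant region of each family, by the mean of the 3 libraries, was above WT in ddb2-3 for every family of at least 5 regions but ATHILA4A. In ATHILA0_I it was chr3:15254501-15254600 in the pseudogene AT3G43304, with 47.2 RPM in ddb2-3, 0 RPM in nrpd1a and 25.2 RPM in WT. In ATHILA7 it was chr5:17145901-17146000 on the chromosome arm, with 19.9 RPM in ddb2-3, 0 RPM in nrpd1a and 10.5 RPM in WT. In ATHILA it was chr3:14079901-14080200 in the pseudogene AT3G33537, with 39.4 RPM in ddb2-3, 0 RPM in nrpd1a and 31.8 RPM in WT. In ATHILA4C it was chr5:11999901-12000000, with 15.2 RPM in ddb2-3, 0 RPM in nrpd1a and 10.5 RPM in WT. The other families have theirs among the regions described above.

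The methylation class of a region was given by the deposited tables, hyper and hypo standing for a gain or loss of methylation in a comparison of genotypes that the tables do not name. Most of the ATHILA regions were CHG-hyper (214 regions, 65.6% of the set and 16.6% of that class), followed by CHG-hypo (59), CHH-hyper (44), CHH-hypo (5), CG-hyper (3) and CG-hypo (3), with 2 regions listed in 2 classes. CHG-hyper regions summed to 2047 RPM in ddb2-3 and 1372 RPM in WT, a log2 ratio of 0.58 (0.54 to 0.62). CHH-hyper regions had 490 RPM in ddb2-3 and 335 RPM in WT, a log2 ratio of 0.55 (0.47 to 0.63). CHG-hypo regions had 791 RPM in ddb2-3 and 569 RPM in WT, a log2 ratio of 0.48 (0.41 to 0.54), or 0.51 without the most abundant region. The siRNA level was therefore above WT both where methylation was listed as gained and where it was listed as lost.

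Taken by direction, the 260 hyper regions had a log2 ratio of 0.57 (0.54 to 0.61) and the 66 hypo regions one of 0.48 (0.42 to 0.54). The size rule picked 29 of the hyper and 3 of the hypo regions as at least 2-fold higher in ddb2-3, or 11.2% and 4.55%. The hypo share was close to the 5.22% of all distinct regions, and the rule was met in the whole CHG-hyper class by 7.91% and in the whole CHG-hypo class by 5.51%. The 5 CHH-hypo regions had 30.3 RPM in ddb2-3 and 26.2 RPM in WT, and their log2 ratio of 0.21 (-0.08 to 0.51) could not be told from 0 by counting.

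The 6 regions of the CG classes were all above WT. The CG-hyper regions were the ATHILA4 region chr2:2381001-2381100 with 16.9 RPM in ddb2-3 and 8.45 RPM in WT, the ATHILA4A region chr1:15754101-15754200 with 12.0 RPM in ddb2-3 and 11.5 RPM in WT, and the ATHILA4 region chr1:16046801-16046900 with 5.87 RPM in ddb2-3 and 2.87 RPM in WT. Among these CG-hyper regions only the interval of the ATHILA4A region, 0.758 to 1.44, included 1. The CG-hypo regions were the ATHILA4 region in AT4G06581 already described, the ATHILA region chr2:3857901-3858000 with 6.23 RPM in ddb2-3 and 3.72 RPM in WT, and a region listing both ATHILA0_I and ATHILA4C, chr4:3456401-3456500, with 3.12 RPM in ddb2-3 and 2.03 RPM in WT. The ratio intervals of the ATHILA region, 0.9995 to 2.90, and of the region listing both families, 0.748 to 3.34, included 1. The summed log2 ratio of the 3 CG-hypo regions was 1.02 (0.63 to 1.42). The ATHILA4 region gave 134 of their 212 ddb2-3 reads. For all 48 CG-hypo regions the log2 ratio was -0.70 (-0.82 to -0.59), a class total that includes these 3.

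Within the CHG-hyper class the families kept much of their order. The log2 ratios of summed levels were 0.70 (0.61 to 0.79) for ATHILA0_I, 0.66 (0.59 to 0.73) for ATHILA3, 0.62 (0.38 to 0.86) for ATHILA4A, 0.59 (0.47 to 0.70) for ATHILA5, 0.46 (0.35 to 0.58) for ATHILA4, 0.46 (0.36 to 0.55) for ATHILA and 0.23 (-0.02 to 0.48) for ATHILA4C. ATHILA4A stood higher here than over all its classes, and its CHG-hypo regions had a log2 ratio of 0.27 (0.02 to 0.52). The interval of ATHILA4C included 0.

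Nearly all of the regions, 319 of 326, lay within 3 Mb of the approximate centromere. Their log2 ratio of summed levels was 0.55 (0.52 to 0.58), and that of the 7 regions on the arms was 0.46 (0.28 to 0.64). By distance, the 181 regions under 1 Mb from the centromere had 1656 RPM in ddb2-3 and 1093 RPM in WT, a log2 ratio of 0.60 (0.56 to 0.64). The 128 regions from 1 to 2 Mb had a log2 ratio of 0.52 (0.48 to 0.56), or 0.54 without the most abundant region, and the 17 farther ones 0.34 (0.21 to 0.48). The medians of the single-region differences, 0.53, 0.43 and 0.48 in the same order, did not follow that order, and across the 326 regions the Spearman correlation of the difference with distance was -0.11.

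Chromosome by chromosome the log2 ratios of summed levels were 0.59 (0.51 to 0.68) on chromosome 1, 0.55 (0.47 to 0.63) on chromosome 2, 0.61 (0.55 to 0.68) on chromosome 3, 0.54 (0.48 to 0.60) on chromosome 4 and 0.49 (0.43 to 0.54) on chromosome 5. Without the most abundant region the chromosome 5 value was 0.52 (0.46 to 0.59). The difference was thus found on every chromosome, at similar size.

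**Figure D3:**
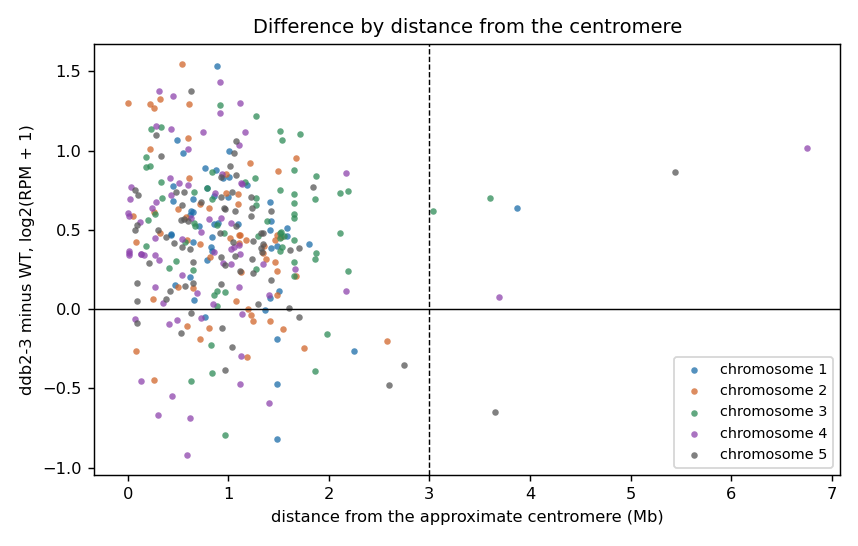
Difference between ddb2-3 and WT (y axis, log2 of RPM + 1) against distance from the approximate centromere in Mb (x axis) for the 326 ATHILA regions, 1 point each, coloured by chromosome. The dashed line marks 3 Mb, beyond which 7 regions lie. Points of every chromosome lie mostly above 0, and within 3 Mb regions lie on both sides of it, while of the 7 farther ones 6 lie above and 1 below.

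The 7 regions on the arms are described in full although the naming rule covers only some of them. The ATHILA7 region chr5:17145901-17146000, 1229 bp from AT5G42750, was described above. A second ATHILA7 region, chr3:17205321-17205400, had 17.1 RPM in ddb2-3 and 10.1 RPM in WT. The ATHILA4A region chr4:10748501-10748700, 1374 bp from AT4G19750, had 9.23 RPM in ddb2-3 and 4.06 RPM in WT, a ratio of 2.27 (1.42 to 3.76). The ATHILA4D_LTR regions chr3:10564901-10565242 and chr1:18972101-18972199 had 9.35 and 1.08 RPM in ddb2-3, against 5.75 and 0.338 RPM in WT. The ATHILA8A region chr4:7688001-7688100 had 29.8 RPM in ddb2-3 and 28.2 RPM in WT. Only the CHH-hypo ATHILA7 region chr5:15351601-15351700 was below WT in ddb2-3, as given above.

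Several long elements held more than 1 region and so could be followed along their length. Of 229 elements listed alone for a region, 8 held at least 4 regions, and in all 8 the summed level was above WT in ddb2-3. In 5 of the 8 every region was above WT. The element with the most regions, CT00000450, an ATHILA0_I copy of chromosome 3 that lies over the pseudogenes AT3G43303 and AT3G43304, held 8 regions between 15251001 and 15257500. In order along the chromosome these regions had 2.88, 23.1, 13.8, 24.9, 16.2, 47.2, 9.23 and 21.1 RPM in ddb2-3, against 1.86, 18.6, 8.29, 16.4, 13.9, 25.2, 5.75 and 12.3 RPM in WT. The level varied widely along the element, in both libraries alike, and ddb2-3 was the higher one at each of the 8 regions. The log2 ratio of their sum was 0.63 (0.49 to 0.77). The element mixed CHH-hyper, CHG-hyper and CHG-hypo regions, and its only CHG-hypo region had a ratio of 1.66 (1.18 to 2.37). The fifth region was the one that shares its sequence with an ATHILA2 copy.

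The ATHILA0_I element CT00000538 of chromosome 4 differed along its length. Its 5 regions had 4.91, 16.3, 7.31, 14.3 and 2.28 RPM in ddb2-3, against 6.26, 8.96, 2.37, 11.0 and 3.55 RPM in WT. The first and the last were below WT and the others above it, but the intervals of both lower ratios, 0.785 (0.491 to 1.26) and 0.641 (0.326 to 1.25), included 1. The ATHILA5 element CT00000013 of chromosome 1 had 15.7, 59.8, 16.9, 12.5 and 10.9 RPM in ddb2-3, against 14.9, 37.0, 11.7, 9.30 and 7.10 RPM in WT, above WT at every region. Among elements with 3 regions, the ATHILA0_I copy CT00000087 of chromosome 2 had the highest log2 ratio, 1.31 (1.02 to 1.60), with 7.91, 5.27 and 39.5 RPM in ddb2-3, against 3.21, 2.54 and 15.6 RPM in WT. It holds the ATHILA0_I region named above for its high ratio. That region had no unique 24-base word and gave 330 of the element's 440 ddb2-3 reads.

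**Figure D4:**
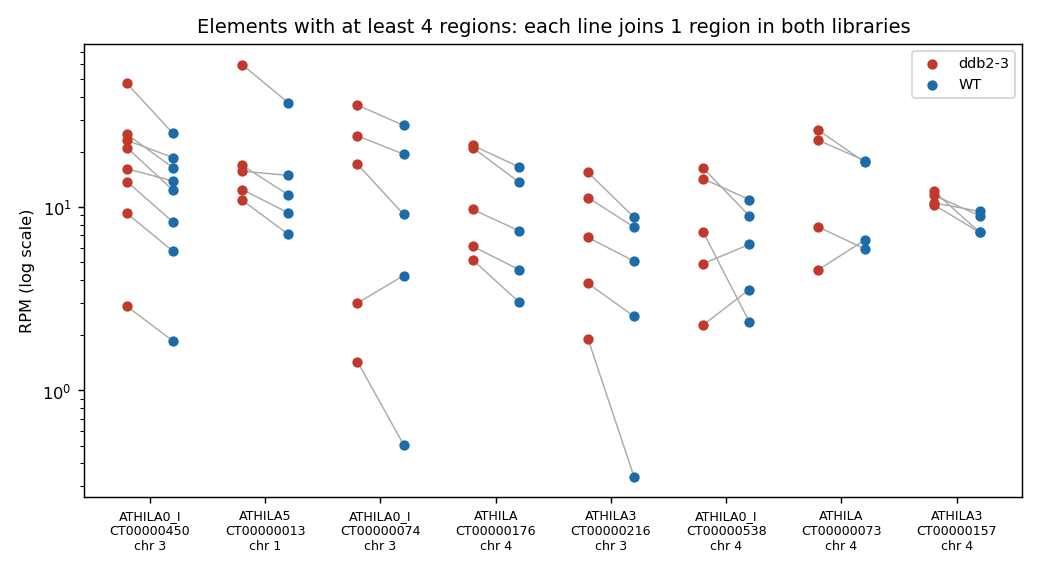
Level of 24-nt siRNAs in RPM (y axis, log scale) for the regions of the 8 elements with at least 4 regions (x axis, family, element and chromosome). Red points are ddb2-3, blue points WT, and each line joins the values of 1 region. Most lines fall from left to right, that is, ddb2-3 was above WT, and in 5 of the elements all of them do.

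Regions with more copies elsewhere had more siRNA reads. The Spearman correlation with the share of unique 24-base words was -0.39 for the ddb2-3 level and -0.38 for the WT level over the 326 regions, which come from the same libraries and have sequence in common. Where under 10% of the words were unique (46 regions), the median level was 10.1 RPM in ddb2-3 and 7.27 RPM in WT. Where at least 90% were unique (23 regions), it was 2.28 RPM in ddb2-3 and 1.52 RPM in WT. More siRNAs made from repeated sequence and the counting of a read at each of its copies cannot be told apart here.

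The ratio of ddb2-3 to WT followed uniqueness less closely, with a Spearman correlation of -0.07. In 4 groups with increasing uniqueness below 90% the log2 ratio of summed levels was 0.53, 0.57, 0.54 and 0.58. In the 23 regions with at least 90% unique words it was 0.42 (0.25 to 0.58), but their median log2(RPM + 1) difference was 0.05, with 14 regions above WT and 9 below, and after scaling to the median of all regions it was -0.06. These regions are weakly covered, and their sum rests on a few of them. The ATHILA7 region chr5:17145901-17146000, with 19.9 RPM in ddb2-3 and 10.5 RPM in WT, and the ATHILA4A region chr4:10748501-10748700, with 9.23 RPM in ddb2-3 and 4.06 RPM in WT, were the clearest of those above WT. The ATHILA8B region chr5:12994901-12995100 had 9.71 RPM in ddb2-3 and 9.47 RPM in WT, and the ATHILA4A region of the CG-hyper class had 12.0 RPM in ddb2-3 and 11.5 RPM in WT. The sum and the median levels of these 23 regions thus gave a higher level in ddb2-3, whereas the median of the differences was only 0.05. The share of regions above WT was 60.9% in them, against 85.6% of the whole set and 63.4% of all distinct regions.

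The ratio was similar at low and high levels. In 4 groups of nearly equal number by the mean level of both libraries, from the lowest to the highest, the log2 ratio of summed levels was 0.56, 0.55, 0.52 and 0.56. In base composition the regions had a median GC content of 42.0%, against 36.4% over all distinct regions. They had a median of 6 CHG and 30 CHH sites per 100 bp on both strands, against 5 and 25 over all distinct regions. ATHILA2 and ATHILA6 regions had medians of 44.0% GC and 8 CHG sites in both, and 29 and 30 CHH sites. Of the 326 regions 193 overlapped an annotated gene or pseudogene, 191 of them pseudogenes and 2 protein-coding genes. The 2 coding cases were the ATHILA region in AT5G25754, below WT in ddb2-3, and the ATHILA8B region chr2:4134801-4134900 in AT2G10602, with 5.39 RPM in ddb2-3 and 1.18 RPM in WT.

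One region had no WT read at all, the ATHILA5 region chr3:14514501-14514596, which was picked after its values were seen. It had 12 reads in ddb2-3, or 1.44 RPM, which was 2.83-fold higher than WT when WT was set to a floor of 3 reads. The exact 95% interval of its log2 ratio began lower, at 0.98.

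Set beside the other ATHILA families, the log2 ratio of summed levels, 0.55 (0.52 to 0.58), was close to that of the 313 ATHILA2 regions, 0.58 (0.57 to 0.60), and below that of the 209 ATHILA6 regions, 0.69 (0.66 to 0.71). The 1761 pericentromeric regions of other repeats and genes had a log2 ratio of 0.14 (0.13 to 0.15), whose interval lay apart from that of the regions described here. This background was not matched for methylation class, and class totals over the whole series, ATHILA included, differed. The log2 ratio was 0.37 for CHG-hyper regions, -0.03 for CHH-hypo, 0.08 for CHH-hyper and 0.20 for CHG-hypo. The regions described here had 0.58, 0.21, 0.55 and 0.48 in the same order. How much of the gap goes with class was not tested. Between the ATHILA sets the levels differed more than the ratios. The median level was 5.75 RPM in ddb2-3 and 4.31 RPM in WT here, 17.3 RPM in ddb2-3 and 11.5 RPM in WT for ATHILA2, and 11.5 RPM in ddb2-3 and 6.93 RPM in WT for ATHILA6. The share of regions at least 2-fold higher in ddb2-3 was 9.82% here, 8.63% in ATHILA2 and 16.3% in ATHILA6.

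Setting nrpd1a against WT addresses how much of the siRNA level of ATHILA regions is left without Pol IV. The nrpd1a library had a summed level of 64.7 RPM (89 reads) over the 326 regions, against 2328 RPM (13768 reads) in WT, or 2.78% of the WT level (2.23% to 3.42%). Of the 89 reads, 62 lay in a single region that contains a tRNA gene. Without it the nrpd1a level was 19.6 RPM (27 reads), or 0.844% of WT (0.556% to 1.23%). These 27 reads were spread over 22 regions, 18 of them with 1 read, 3 with 2 reads and 1 with 3 reads. No nrpd1a read at all was found in 303 of the 326 regions, and 77.1% of all distinct regions had none. These shares were not matched for level, as the WT median was 4.31 RPM here and 6.93 RPM over all distinct regions. Over all distinct regions the summed nrpd1a level was 3.54% of WT.

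By the size rule 295 regions were at least 2-fold lower in nrpd1a than in WT and 1, the region with the tRNA gene, was at least 2-fold higher, against 92.9% and 0.246% of all distinct regions. In 297 regions the WT level reached 1 RPM, and 288 of these had a nrpd1a level below 10% of it, as had 91.9% of all regions with that WT level. The depth of the nrpd1a library limits these counts. At the WT level the median region would have 5.93 reads in nrpd1a, and 226 regions would have at least 3. A count of 0 allows up to 3 reads, or 2.18 RPM. With levels under 3 reads set to that floor, 139 regions were at least 2-fold lower and 18 were under 10% of WT. Those 18 were all of the ATHILA regions whose WT level was high enough for 3 reads to fall under 10%, and 96.6% of all such regions of the series were under it.

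For the most abundant region, the ATHILA3 region of chromosome 5, the count of 0 in nrpd1a meant a level at least 81.7-fold lower than in WT. For the ATHILA3 region chr5:10744601-10744700 the level was at least 23.9-fold lower. For the ATHILA5 regions chr1:16516201-16516300 and chr5:11767801-11767900 it was at least 17.0-fold and 15.3-fold lower. For the ATHILA4 region chr3:12323001-12323100 it was at least 15.8-fold lower. These bounds are set by the floor of 3 reads and by the level in WT, which was taken as measured. The exact 95% interval is wider and allowed a ratio of nrpd1a to WT of up to 0.0151 for the most abundant region.

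Apart from the region with the tRNA gene, the region with the most reads in nrpd1a was the ATHILA8A region on the arm of chromosome 4, chr4:7688001-7688100. It had 3 reads (2.18 RPM) in nrpd1a and 28.2 RPM in WT, a ratio of 0.0772 (0.0158 to 0.230). Next came regions with 2 reads (1.45 RPM) each in nrpd1a, namely the ATHILA3 regions chr1:14224701-14224800 and chr1:16103901-16104000, with 10.7 and 7.61 RPM in WT, and the ATHILA4 region chr2:6180401-6180500, with 5.24 RPM in WT. Their ratios of nrpd1a to WT were 0.136 (0.0162 to 0.514), 0.191 (0.0224 to 0.731) and 0.277 (0.0321 to 1.09). The interval of the ATHILA4 region included 1, so that its lower level was within counting error.

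The exception was an ATHILA5 region of the CHG-hyper class on chromosome 1 that overlaps the tRNA gene AT1G43820, a tRNA-Asp with the anticodon GTC, and the pseudogene AT1G43830. The tRNA gene fills 72 of its 100 bases (chr1:16585705-16585776, minus strand), shown in capitals on the plus strand.

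ATHILA5 chr1:16585701-16585800, plus strand: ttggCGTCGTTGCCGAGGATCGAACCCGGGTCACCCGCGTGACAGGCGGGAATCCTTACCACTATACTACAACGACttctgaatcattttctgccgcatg

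This region had 1.20 RPM (10 reads) in ddb2-3, 45.1 RPM (62 reads) in nrpd1a and 2.87 RPM (17 reads) in WT. The nrpd1a level was 15.7 times that of WT (9.05 to 28.6), the reverse of the other regions. The ratio of ddb2-3 to WT was 0.417 (0.171 to 0.964). A separate region of the series that covers just the tRNA gene and 1 base beside it had 1.20 RPM in ddb2-3, 45.1 RPM in nrpd1a and 2.71 RPM in WT. The read counts of both regions were thus equal in ddb2-3 and nrpd1a and differed by 1 read in WT, although the separate region is 73 bp wide. What RNA these reads come from was not tested. Without this region ATHILA5 had a log2 ratio of 0.63 (0.52 to 0.74) between ddb2-3 and WT.

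The share of the WT level found in nrpd1a was 0.379% (0.0459% to 1.37%) in ATHILA0_I, 0.507% (0.0614% to 1.84%) in ATHILA4, 0.815% (0.222% to 2.09%) in ATHILA and 1.02% (0.488% to 1.87%) in ATHILA3. It was 0.611% (0.0155% to 3.42%) in ATHILA4A and 0.910% (0.0230% to 5.10%) in ATHILA4C, with 1 read each. ATHILA5 had 26.8% (20.5% to 34.6%), or 0.853% (0.103% to 3.09%) without the region with the tRNA gene. The highest of the other shares were 6.11% (1.25% to 18.1%) in the 2 ATHILA8A and 4.28% (0.514% to 15.6%) in the 4 ATHILA4B_LTR regions, from 3 and 2 reads. Apart from ATHILA5 with its tRNA region, the intervals of these families overlapped. ATHILA7 and the regions with several families had 0 reads in nrpd1a, which allows up to 6.57% and 3.14% of WT by the upper bound of the exact interval. For the ATHILA2 and ATHILA6 regions the share was 1.03% (0.827% to 1.26%) and 0.764% (0.511% to 1.10%). The interval of the regions described here, without the region with the tRNA gene, overlapped both.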

How the data were processed

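Small RNAs of 3 Arabidopsis seedling libraries (ddb2-3, nrpd1a and WT, 1 each) were analysed from the level of 24-nt reads over differentially methylated regions. The deposited values are RPM, reads scaled to library size and summed over each region by the authors, per the file headers. The submitters' processing notes name CASAVA 1.8.2, Bowtie, bedtools and the genome build TAIR10. How reads that match several places were counted, which mismatches were allowed and which reads made up the RPM denominator is not given in the sources used here, and the 24-nt length and the methylation classes are known from the names of the tables only.

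The 6 class tables of each library were pooled and reduced to 4481 distinct regions by coordinates. A region belonged to the set when every repeat listed for it began with ATHILA and was neither ATHILA2 nor an ATHILA6 name. The set and the lists were chosen with earlier results of these data known. The RPM values were whole multiples of 1 read in 100% of regions within 0.1 read. Ratios have exact 95% Clopper-Pearson intervals on these recovered reads, which cover counting error only, and fold bounds take 3 reads in place of a count of 0, that is, 0.359 RPM in ddb2-3, 2.18 RPM in nrpd1a and 0.507 RPM in WT. Differences per region are log2(RPM + 1), with at least 2-fold as the size rule and a filter of 1 RPM or more in some library. With 1 library per genotype no test of genotypes was possible.

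Named regions were the 5 highest and 5 lowest ddb2-3 to WT differences among regions of at least 10 RPM, the 5 highest in nrpd1a and in WT, the most abundant of each family of at least 5 regions, and up to 6 in each CG class. Regions of the arms, of the longest elements, and others said to be outside the rule were added. Sequences, annotation and the places of each 24-base word came from the RefSeq TAIR10.1 genome. Of 345 gene entries listed by the authors, 341 were in its annotation and 334 overlapped the same locus there. Centromere positions are approximate, from general knowledge. Alternatives were another scaling, other pseudocounts and filters, sets with regions left out, the most unique regions, a floor for nrpd1a and an exact binomial count test. The steps were tested on simulated data. Python 3.11.15, numpy 2.4.6, pandas 2.3.3, scipy 1.17.1 and matplotlib 3.10.9 were used.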

Additional observations from a re-analysis of the deposited data

How the results depend on the processing

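With 1 library per genotype and much sequence in common between copies, the values describe these libraries only, and the shallow nrpd1a library limits what a count of 0 can show. No paired analysis was possible because each genotype had a single library and the labels give no replicate numbers. With ddb2-3 scaled to the median of all regions, the log2 ratio of summed levels was 0.35, the median log2 difference 0.30 and the count of regions at least 2-fold higher 15, against 2.99% of all distinct regions. On that scale the summed log2 ratio was 0.29 in ATHILA, 0.47 in ATHILA0_I, 0.38 in ATHILA3, 0.28 in ATHILA4, 0.18 in both ATHILA4A and ATHILA4C, 0.41 in ATHILA5 and 0.30 for several families. By class it was 0.38 in CHG-hyper, 0.28 in CHG-hypo and 0.35 in CHH-hyper. By position it was 0.26 on the arms, 0.35 near the centromere, 0.40, 0.35, 0.41, 0.34 and 0.29 on chromosomes 1 to 5, and 0.40, 0.32 and 0.14 at under 1 Mb, 1 to 2 Mb and 2 Mb or more. All of these remained above 0, and the lower values follow from the shift itself. Among groups left out of this list, the value was 0.01 in CHH-hypo, -0.02 in ATHILA8A and 0.03 in ATHILA4C within CHG-hyper. It was 0.46 in ATHILA7, 0.41 in CG-hyper and 0.82 in CG-hypo. With a pseudocount of 0.5 RPM, 41 regions were at least 2-fold higher and 1 at least 2-fold lower in ddb2-3, and 314 at least 2-fold lower in nrpd1a. With 2 RPM the median was 0.40 and 12 regions were at least 2-fold higher. Among the 110 regions of at least 10 RPM, some of which passed through ddb2-3 alone, the median was 0.54. Of these, 6 were at least 2-fold higher in ddb2-3 and 109 at least 2-fold lower in nrpd1a. In the 23 regions with at least 90% unique words the summed log2 ratio was 0.42, the median 0.055, 2 regions were at least 2-fold higher, the nrpd1a level was 1.81% of WT, 20 regions were at least 2-fold lower in nrpd1a and 19 under 10% of WT. The cause of the lower share of regions at least 2-fold higher in the 110 regions and of the lower median in the 23 was not tested. For the other pseudocounts, the 10 RPM filter, the most unique regions and the 2-fold count with the nrpd1a floor, no share over all distinct regions is given. The counts under these settings therefore cannot be read as particular to the ATHILA regions. The count test called 100 regions higher and 0 lower in ddb2-3, against 19.3% and 7.03% of all distinct regions. Chosen after seeing the data, leaving out the region with the tRNA gene gave 0.844% of WT in nrpd1a, and the floor for nrpd1a gave 139 and 18 regions. Leaving out the 3 most abundant regions gave a summed log2 ratio of 0.56 and 3.14% of WT in nrpd1a. No region failed the filter and no regions of the set overlapped. Removing the filter or overlaps therefore left the set unchanged and could not alter a value.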
